A study of Capra hircus with 10 samples.

Results

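The miRNA described here are those encoded next to and inside RTL1 in the imprinted DLK1-DIO3 domain, measured in the mammary gland of lactating goats. They were chosen by name, taking every row named miR-493, miR-337, miR-665, miR-431, miR-433, miR-127, miR-432, miR-136 or miR-370, with either arm of the precursor. Of these 9 names, 7 had rows in the counts, and these gave 14 mature miRNA out of 1804. No row carried the names miR-337 or miR-431, which were not analysed here. Of the 14 rows, 10 had a goat name, and the other 4 rows, miR-665-5p, miR-433-5p and both arms of miR-370, were named after sheep or human miRNA. The rows named miR-433 and miR-665 carry no arm in their name and are called miR-433-3p and miR-665-3p below.

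Small RNA was sequenced from the mammary gland of lactating Alpine goats, 1 library for each of 10 animals. They had kidded 48 ± 2 days earlier and were at peak lactation. All goats received a hay-based diet for 2 weeks. During the following 48 h, 4 goats went on eating it freely (Control, libraries L01, L04, L06 and L10), whereas the other 6 got no feed (FD, for food deprived, libraries L02, L03, L05 and L07 to L09). RNA came from about 150 mg of whole gland per goat, taken at slaughter, so every library mixes epithelial, stromal, vascular and blood cells. In such bulk samples fewer cells of a type and less RNA per cell cannot be told apart. Total counts per library ran from 4495512 to 7506955 for the Control goats and from 5674119 to 9842009 for the FD goats.

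In mammals, the DLK1-DIO3 domain is expressed according to parental origin: the protein genes DLK1, RTL1 and DIO3 are read from the paternal chromosome, and the noncoding RNA, with a large number of miRNA, from the maternal one. The miRNA that lie inside RTL1 are made from a transcript antisense to it, so they pair perfectly with the RTL1 mRNA and can direct its cleavage. A miRNA otherwise recognises its target mRNA mostly through its seed, bases 2 to 8 from the 5′ end, and each hairpin precursor can release a mature miRNA from its 5′ arm (5p) and another from its 3′ arm (3p). In sheep, a mutation of this domain enlarges the muscles of the hindquarters, and in most adult tissues these miRNA are known to be less abundant than in the fetus or the brain. Read counts do not tell which parental copy was expressed.

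In the RefSeq gene table of the goat assembly ARS1.2, 6 of the 7 names were found, on chromosome 21, in the order MIR493, MIR665, RTL1, MIR433, MIR127, MIR432 and MIR136. The last 4 lie inside the span listed for RTL1, and they are the only 4 miRNA genes there. The table gives neither strands nor exons. Between DLK1 and DIO3 it lists 55 genes, of which 45 are miRNA genes. MIR136 is followed, after 5 other genes, by MIR379, the first miRNA gene of the long downstream cluster. MIR370 was not found by name in this table. Both arms of miR-370 were counted on a precursor predicted in the deposited files on the older assembly CHIR_1.0, at chr21:62718814-62718870 on the plus strand, with 108 reads over all libraries. Its miRDeep2 score, a log-odds measure of how much a locus resembles a true precursor, was 55.7. Of the 1070 predicted precursors, 110 had a higher score. The folding check of the miR-370 precursor (randfold) was marked no by the authors' prediction.

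The mature sequences below are those of the 8 miRNA abundant enough to be tested, and of miR-433-3p and miR-370-3p, the main arms of the other 2 precursors. They are written 5′ to 3′ as DNA, as in the deposited files, with the seed in capitals.
miR-493-5p: tTGTACATggtaggctttcatt
miR-493-3p: tGAAGGTCtactgtgtgccagg
miR-665-3p: aCCAGTAGgccgaggcccct
miR-433-3p: aTCATGATgggctcctcggtgt
miR-127-5p: gAAGCTCAgagggctctgattc
miR-127-3p: tCGGATCCgtctgagcttgg
miR-432-5p: tCTTGGAGtaggtcattgggtgg
miR-136-5p: aCTCCATTtgttttgatgatgg
miR-136-3p: aTCATCGTctcaaatgagtct
miR-370-3p: gCCTGCTGgggtggaacctggt

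The 14 members carried 14 different seeds, so no pair of them forms a seed family, although they are neighbours in the genome. Only miR-370-5p shared its seed with another of the 1804 miRNA. Its partner was miR-1193-3p, a miRNA of the downstream cluster with 2 counts in all. The pair is shown here to place the shared capitals side by side.
miR-370-5p: cAGGTCACgtctctgcagttac
miR-1193-3p: tAGGTCACccgtttgactatcc

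The sequences were rich in G and C, with a median of 54.5% over the 14 members and a range from 36.4% (miR-493-5p and miR-136-5p) to 70% (miR-665-3p). The 8 tested members had a median of 53.4%, against 45.5% for the 490 miRNA tested in the whole gland.

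miR-127-3p was by far the most abundant member, with 40682 normalized counts on average over the 10 libraries, and it took rank 26 among the 1804 miRNA. Normalized counts are counts divided by a size factor of the library, so they are levels on a common depth. It was followed by miR-136-3p with 1769 normalized counts (rank 100), 23.0 times fewer. The next levels were those of miR-136-5p (467), miR-493-3p (260), miR-493-5p (229), miR-665-3p (156), miR-127-5p (129) and miR-432-5p (65.4). Neighbours in this order differed by more than their SD over the libraries except miR-493-3p and miR-493-5p, which kept their order in 7 of 10 libraries, and miR-665-3p and miR-127-5p, which kept it in 8.

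The other 6 members were close to the detection limit. miR-433-3p averaged 6.95 normalized counts and miR-370-3p 6.16, levels that did not differ by more than their SD. miR-665-5p (1.87), miR-370-5p (0.823), miR-432-3p (0.553) and miR-433-5p (0.252) formed the end of the order, and no neighbours among these 4 differed by more than their SD. Together the 6 rows held 166 of the 450391 counts of the members. The limit that a count of 0 allows, 3 counts, corresponds to 0.305 to 0.667 CPM (counts scaled to the library total) in these libraries. miR-432-3p had no count in the 4 Control libraries, which allows up to 0.667 CPM in the shallowest of them, and 6 counts in all in 3 FD libraries. Of these counts, 4 came from L09 alone, and the remaining FD libraries also had none.

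**Figure D1:**
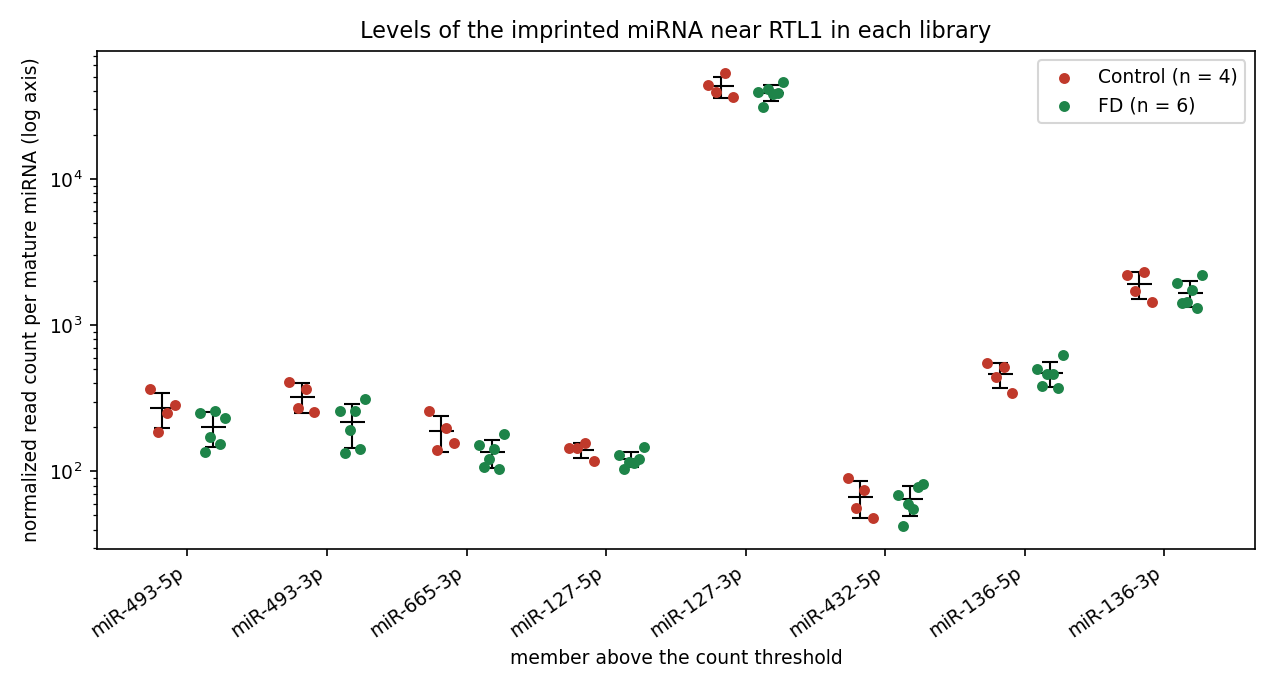
Normalized counts on a log10 axis for each of the 8 tested members, with 1 point per library (Control n = 4, FD n = 6) and bars for the mean ± SD of each diet. miR-127-3p lies between 31044 and 52843 in all libraries, above every value of the other 7 members, and for none of the 8 do the points of the diets separate.

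The 14 members together took 0.714% ± 0.151 (SD, n = 4) of the counts of Control libraries and 0.648% ± 0.0789 (SD, n = 6) of those of FD libraries. The lowest share was 0.513% in L03, an FD goat (95% Wilson interval 0.508 to 0.519, counting error only), and the highest was 0.901% in L06, a Control goat (0.892 to 0.910). The diets overlapped, and the difference was smaller than the SD among Control goats. In each library miR-127-3p alone made up between 91.6% and 94.4% of the members' counts, so the share mostly follows this miRNA.

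The study asked which mammary miRNA respond to a short food deprivation. None of the 8 tested members differed between diets at an adjusted p under 0.1 with edgeR's quasi-likelihood test and Benjamini-Hochberg adjustment over 490 miRNA, a test that called 0.0% of all the miRNA. At an unadjusted p under 0.05, 2 of the 8 members passed, both lower in FD goats, against 15.7% of the 490 in either direction and 8.16% in that direction. These 2 were miR-493-3p and miR-665-3p, and with 1 library left out the count ran from 0 (without L01, L03, L05 or L06) to 3 (without L02 or L04), and was 1 without L07 or L08. DESeq2 called 0 of the 8 members and 5.31% of the 490. The members are described in the order of the genes, from the DLK1 side of RTL1 to MIR136. Each of the 8 exceeded the filter on low counts in every library, the lowest single value being 42.2 normalized counts against a limit of 28.

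miR-493-5p and miR-493-3p come from the precursor that lies first in the order, on the DLK1 side of RTL1. The normalized counts of miR-493-3p were 408, 273, 367 and 253 in the Control goats, in the order L01, L04, L06 and L10, and ranged in FD goats from 133.4 through a median of 225 to 313. In 3 of the 6 FD goats the value was under that of every Control goat, and the others overlapped. The means were 325 ± 74.1 (SD, n = 4) and 216 ± 72.4 (SD, n = 6), a log2 fold change of -0.60 (SE 0.257, adjusted p = 0.298 with edgeR).

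For miR-493-5p the Control values were 365, 186, 251 and 286, and the FD values ran from 135 through 201 to 257. Again 3 FD goats were under all Control goats. The log2 fold change was -0.45 (SE 0.234, adjusted p = 0.380 with edgeR).

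miR-665-3p, from the gene between MIR493 and RTL1, had normalized counts of 257, 140, 197 and 157 in Control goats and from 103 through 132.7 to 181 in FD goats. Its diets overlapped in the same manner, with 3 FD libraries below all Control libraries. The means were 188 ± 51.9 (SD, n = 4) and 135 ± 29.8 (SD, n = 6), with a log2 fold change of -0.49 (SE 0.212, adjusted p = 0.299 with edgeR).

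Inside RTL1, miR-127-3p had 43897, 39126, 52843 and 36691 normalized counts in Control goats, listed as above, and from 31044 through 39068 to 45793 in FD goats. Only L03 was below every Control library, and the highest Control library, L06, was above all FD libraries. The means were 43139 ± 7128 (SD, n = 4) and 39044 ± 4822 (SD, n = 6), a log2 fold change of -0.16 (SE 0.137, adjusted p = 0.551 with edgeR). miR-127 is widely studied as a silencer of RTL1 in the placenta.

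The other arm, miR-127-5p, had 145.1, 145.2, 155.5 and 117 normalized counts in Control goats and from 104 through 118 to 147 in FD goats. Its log2 fold change was -0.22 (SE 0.153, adjusted p = 0.457 with edgeR). The groups overlapped, although 3 FD goats were under all Control goats.

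miR-432-5p, from the gene between MIR127 and MIR136, had 89.8, 55.9, 74.2 and 48.0 normalized counts in Control goats and from 42.2 through 64.7 to 81.4 in FD goats. Here too the diets overlapped, with a log2 fold change of -0.056 (SE 0.238, adjusted p = 0.913 with edgeR), whose sign turned when L01, L03 or L06 was left out.

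miR-136-3p, from the last gene inside RTL1, had 2192, 1712, 2299 and 1448 normalized counts in Control goats and from 1306 through 1582 to 2199 in FD goats. Its log2 fold change was -0.21 (SE 0.188, adjusted p = 0.564 with edgeR). Here also 3 FD goats were under all Control goats and 3 overlapped them.

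miR-136-5p had 549, 441, 520 and 343 normalized counts in Control goats and from 372 through 466 to 630 in FD goats. The diets overlapped over nearly the whole range, and the log2 fold change was 0.0051 (SE 0.192, adjusted p = 0.996 with edgeR). Its sign turned with the scaling and with the library left out.

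**Figure D2:**
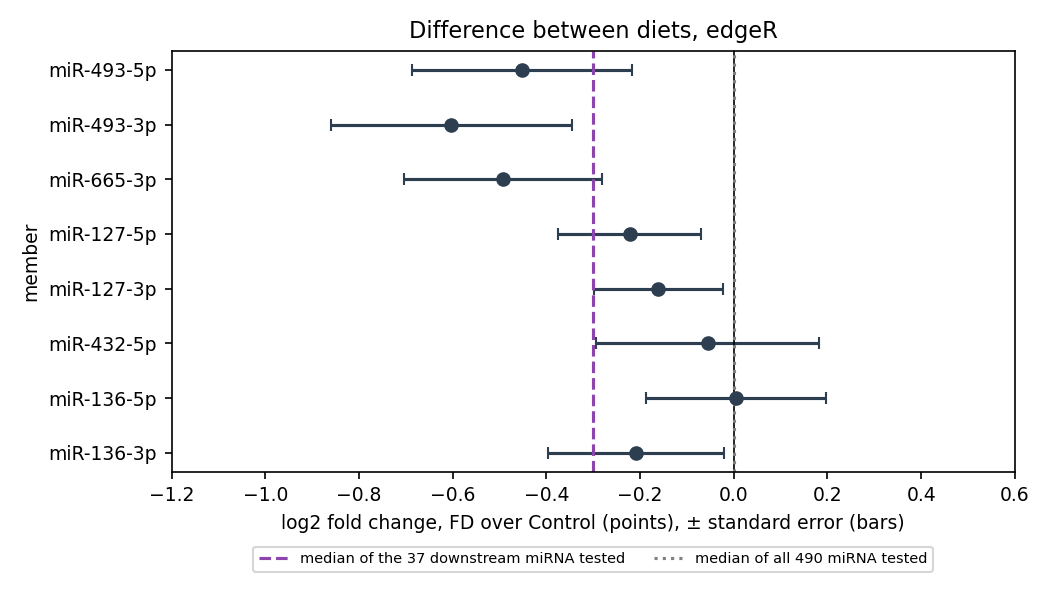
Log2 fold change of FD over Control from edgeR for the 8 tested members, in gene order, with bars of ± 1 standard error, a dashed line at the median of the 37 tested downstream miRNA (-0.30) and a dotted line at the median of all 490 tested miRNA. The estimates lie between -0.60 and 0.0051, and none passed the adjusted threshold.

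Among the 8 tested members the estimate was negative for 7 and positive for 1, beside 50.0% negative among the 490 miRNA, and the median log2 fold change was -0.22 beside -0.0004. The median was -0.49 for the 3 members on the DLK1 side of RTL1 and -0.16 for the 5 members inside it. Without L01 the first median was -0.32, and the second was -0.025 without L06, -0.092 without L03 and -0.28 without L10. The difference between positions was not tested. The members share their libraries, and both arms of mir-493, mir-127 and mir-136 are among them, so these 8 signs are not independent.

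Among the untested members, miR-433-3p had between 3 and 11 counts per library and miR-370-3p between 1 and 11. miR-370-3p, a miRNA studied in lipid metabolism through its target CPT1A, had 6.87 to 11.2 normalized counts in Control goats and 1.18 to 7.68 in FD goats. In 5 of 6 FD goats it was under all Control goats. Without the filter on low counts its log2 fold change was -1.22 with an adjusted p of 0.337 in edgeR. miR-665-5p had 0 to 4 counts per library, miR-370-5p 0 to 2, and miR-433-5p 3 counts in all.

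The spread between goats on the same diet differed among the members. On the log2 scale, the within-diet SD was 0.174 for miR-127-5p and 0.203 for miR-127-3p, and only 8.57% and 14.9% of the 490 tested miRNA varied less. It reached 0.397 for miR-493-5p and 0.447 for miR-493-3p, above 60.8% and 70% of the tested miRNA. The median over the 8 members was 0.321, beside 0.344 over the 490.

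The counts of the arms were unequal in every precursor except mir-493. Over all libraries the 3p arm held 99.7% of the counts of mir-127, 98.8% of mir-665, 95.8% of mir-433 (95% Wilson interval 88.3 to 98.6), 87.1% of mir-370 (77.3 to 93.1) and 79.0% of mir-136. In mir-432 it was the 5p arm that held 99.1%. The arms of mir-493 were nearly even, with 52.7% on the 3p arm (51.3 to 54.1), which was the higher arm in 7 of 10 libraries. In single libraries the share of this arm ran from 47.0% to 59.4%. The intervals pool the reads of all goats and cover counting error only.

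The balance of the arms was compared between diets for the 3 precursors with both arms tested, within a fit of 114 precursors (limma on the log2 ratio of 5p to 3p counts, Benjamini-Hochberg adjustment), in which 2.63% were called at an adjusted p under 0.1. None of the 3 was among them. mir-136 gave 3.88 to 4.42 3p reads per 5p read in Control goats and 3.08 to 3.89 in FD goats. In 5 of 6 FD goats this ratio was smaller than in any Control goat. The log2 ratio of 5p to 3p was higher in FD by 0.21 (SE 0.0870, unadjusted p = 0.0339, adjusted p = 0.504 with limma), and 7.02% of the 114 precursors had an unadjusted p under 0.05. The unadjusted p was 0.135 without L05, 0.0981 without L06, 0.0667 without L10, 0.0528 without L09 and 0.0526 without L08 in the same limma fit.

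mir-127 gave 269 to 338 3p reads per 5p read in Control goats and 298.2 to 357 in FD goats, and mir-493 gave 0.886 to 1.46 and 0.915 to 1.35. Both ranges overlapped. Their differences in the log2 ratio were -0.071 (SE 0.0903, adjusted p = 0.758) and 0.19 (SE 0.165, adjusted p = 0.644) in the same limma fit.

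**Figure D3:**
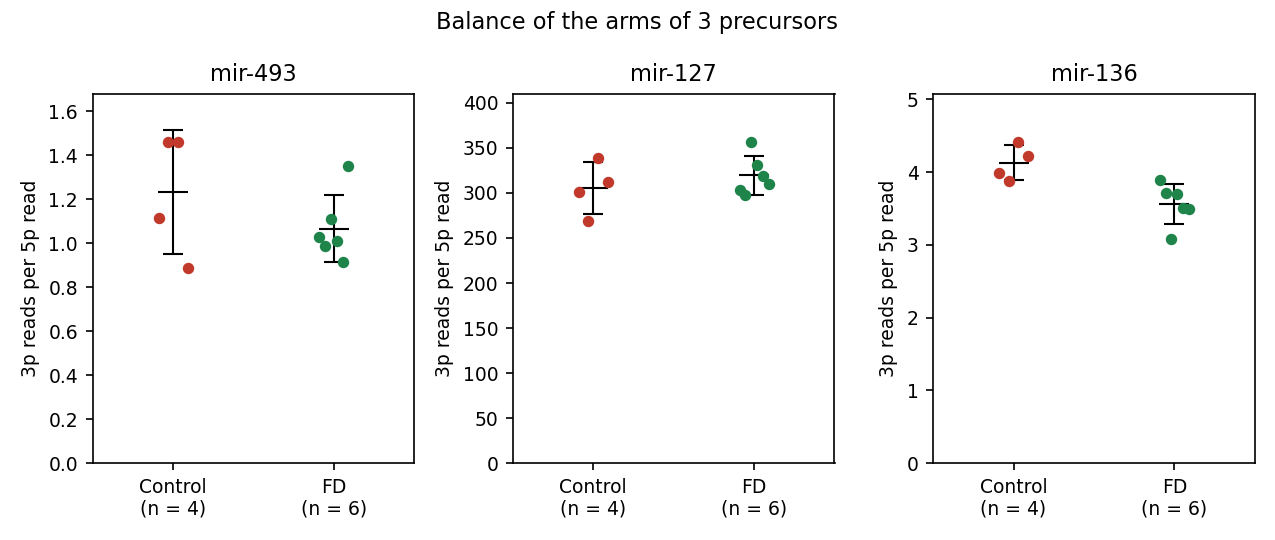
Reads of the 3p arm per read of the 5p arm (linear axis from 0, 0.5 counts added to each arm) in each library for mir-493, mir-127 and mir-136, with the mean ± SD of each diet. The FD points of mir-136 reach from 3.08 to 3.89 and the Control points from 3.88 to 4.42, so they overlap by 1 FD point, and the diets overlap more widely in mir-493 and mir-127.

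All pairs of tested members had a positive correlation over the 10 libraries, without a background from other miRNA beside it. miR-127-3p was compared with each of the 7 other tested members over the 10 libraries, on log2(normalized count + 1), with 100000 permutations (two-sided) and Benjamini-Hochberg adjustment over the 7 pairs. Pearson's r was 0.841 with miR-127-5p (permutation p = 0.00103, adjusted 0.00721; Spearman's rho 0.806, p = 0.00683) and 0.760 with miR-432-5p (permutation p = 0.00857, adjusted 0.0210; rho 0.794, p = 0.00845). It was 0.740 with miR-136-3p (permutation p = 0.00901, adjusted 0.0210; rho 0.758, p = 0.0143) and 0.703 with miR-136-5p (permutation p = 0.0224, adjusted 0.0314; rho 0.818, p = 0.00575). All of these lie inside RTL1.

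On the DLK1 side of RTL1, r was 0.728 with miR-493-3p (permutation p = 0.0160, adjusted 0.0281; rho 0.733, p = 0.0202) and 0.677 with miR-665-3p (permutation p = 0.0323, adjusted 0.0377; rho 0.624, p = 0.0595). With miR-493-5p it was 0.476 (permutation p = 0.161, adjusted 0.161; rho 0.20, p = 0.581). Thus 6 of the 7 pairs passed an adjusted p of 0.05 by Pearson's r. The other tested miRNA were not tested against miR-127-3p, so this count has no background share beside it.

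These relations rest on few goats. L06 and L03 were farthest from the median of miR-127-3p, and without them only miR-136-5p remained under 0.05 (r = 0.860, adjusted permutation p = 0.0482, 8 libraries). Without L03 alone, 0 of the 7 pairs passed (r between 0.181 and 0.763), and without L09 alone 1 passed, the pair with miR-127-5p. On deviations from the mean of each diet 5 pairs passed, and r with miR-665-3p was 0.622 (adjusted permutation p = 0.0674). All 28 pairs among the 8 members had a positive r, from 0.429 to 0.949 with a median of 0.709, or 0.736 within diets. These 28 values share libraries and scaling, have no background of pairs among other miRNA, and are given as a description.

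**Figure D4:**
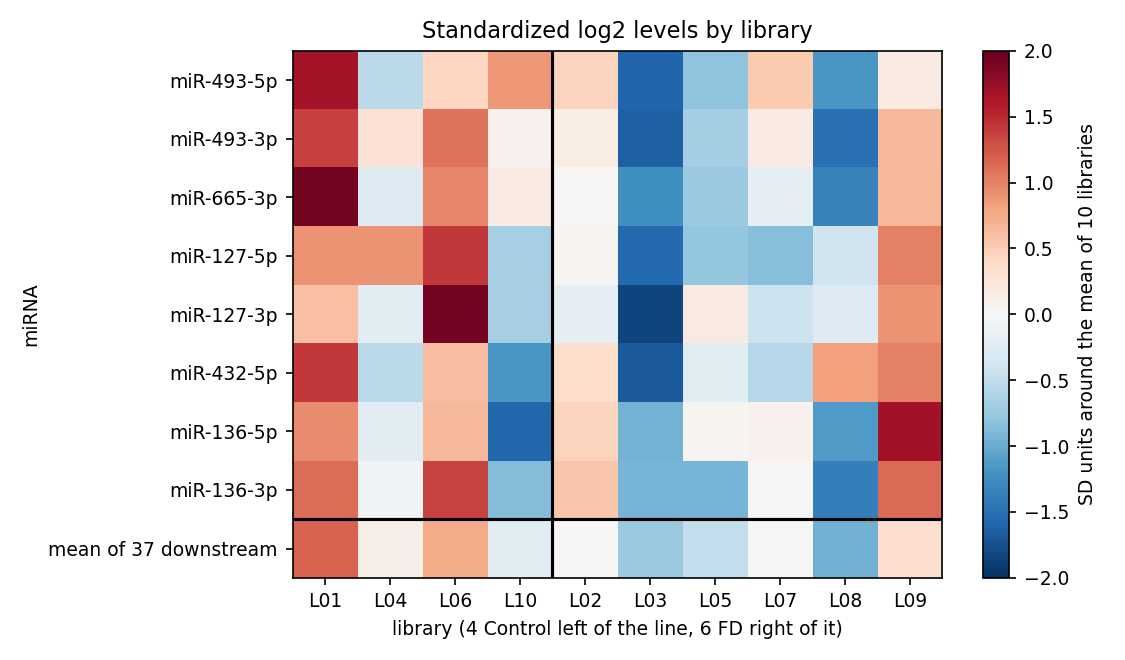
Standardized log2 levels as colours (SD units, each miRNA centred on its mean over 10 libraries) of the 8 tested members, with a last row for the mean of the 37 downstream miRNA, 1 column per library grouped by diet. The mean of the members is high in L01 (1.24) and L06 (1.05), both Control, and in L09 (0.90), an FD goat, and lowest in L03 (-1.43) and L08 (-0.79), both FD.

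Their mean profile over the 10 libraries was compared with every other tested miRNA, as a measure of likeness without a test. The 5 most alike were miR-411a-5p (r = 0.966), miR-410-3p (0.931), miR-3958-3p (0.925), miR-487b-3p (0.905) and let-7f-5p (0.901). The first 4 belong to the downstream cluster of the same domain, and let-7f-5p is a member of the let-7 family from elsewhere in the genome. Of the 20 most alike, 14 (70%) were downstream miRNA, which make up 7.68% of the 482 compared.

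The 37 downstream miRNA had a median r of 0.66 with the member profile, and 35 of them were above 0. The remaining tested miRNA had a median of -0.090, with 43.6% above 0, and ranged from -0.94 (miR-29a-5p) to 0.90 (let-7f-5p). Strong values of either sign thus also occurred outside the domain. On deviations from the diet means these medians were 0.62 and -0.085. For the stromal list r was between -0.63 (miR-145-5p) and 0.034 (miR-143-5p), and it was -0.53 for miR-143-3p, the most abundant of the 8. For the 11 tested epithelial miRNA the median r was 0.40, with 8 above 0. It was 0.56 for miR-141-3p, the most abundant of them, and reached 0.74 for miR-429-3p, but was -0.86 for miR-205-5p. The medians of the endothelial, myeloid and lymphoid, erythroid, muscle and neural lists lay between -0.54 and -0.19. All values come from the same 10 libraries and size factors.

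**Figure D5:**
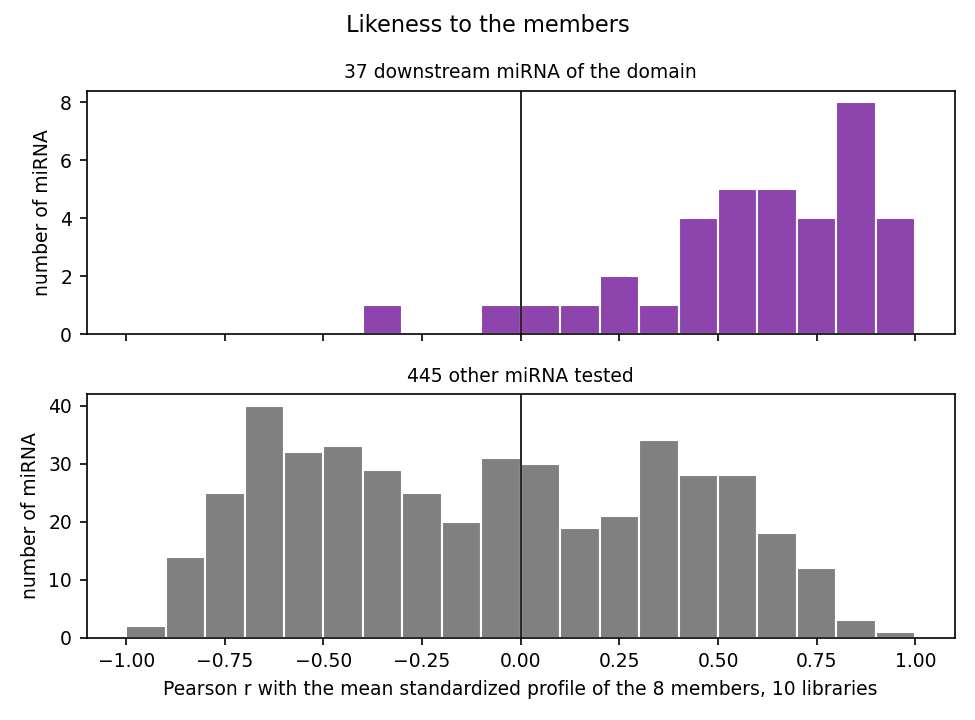
Distribution of Pearson's r with the mean profile of the members over 10 libraries, as numbers of miRNA per bin, for the 37 tested miRNA of the downstream cluster (top) and for the other tested miRNA (bottom). The downstream values have a median of 0.66 and the others a median of -0.090.

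The downstream cluster was measured through 78 rows, of which 37 were tested. The estimate was negative for 33 and positive for 4, and the median log2 fold change was -0.30, beside 50.0% negative and a median of -0.0004 among the 490. None was called by edgeR, and 7 had an unadjusted p under 0.05, all lower in FD goats, beside 8.16% of the 490 that were lower at that p. DESeq2 called 3 of them, miR-494-3p, miR-543-3p and miR-409-3p, all lower in FD goats. Beside them, it called 5.31% of the 490 in either direction, and 14 of the 490 as lower in FD goats. Of the 3, miR-543-3p passed the filter on low counts only through Control libraries, so its call is given as a description. It is also among the 33 negative estimates and the 7 with an unadjusted p under 0.05. These counts and the median are therefore a description too, and were not recomputed without it. Other downstream rows near the filter were not checked in this way.

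The 3 miRNA called by DESeq2 were also the 3 downstream miRNA with the smallest p in edgeR, each at an adjusted p of 0.195. miR-494-3p had 311 ± 61.1 normalized counts (SD, n = 4) in Control goats and 197 ± 32.4 (SD, n = 6) in FD goats, a log2 fold change of -0.67 (SE 0.176), and all 6 FD goats were under all Control goats. miR-409-3p had 1954 ± 517 and 1159 ± 280 normalized counts, a log2 fold change of -0.77 (SE 0.214). miR-543-3p had 26.2 ± 7.48 and 12.2 ± 3.31, a log2 fold change of -1.11 (SE 0.299). Its FD values, from 9.57 to 18.8, were all below the filter on low counts, which it passed only through Control libraries. The edgeR p and fold change of miR-543-3p are therefore also given as a description. No tested member had all its FD libraries below every Control library, beside 1.02% of the 490 miRNA.

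The most abundant downstream miRNA was miR-411a-5p, with 25262 ± 5158 normalized counts (SD, n = 4) in Control goats and 21208 ± 4884 (SD, n = 6) in FD goats and a log2 fold change of -0.27 (SE 0.183, adjusted p = 0.457 with edgeR). miR-410-3p had a log2 fold change of -0.46 (SE 0.264, adjusted p = 0.421 with edgeR). Whether the members and the downstream cluster differed in their response was not tested.

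The tissue was checked with miRNA typical of its cell types. The epithelial list, led by miR-141-3p, summed to 231602 ± 10132 normalized counts (SD, n = 4) in Control goats and 212745 ± 25467 (SD, n = 6) in FD goats, so the labelled tissue showed its epithelial miRNA in every library. Of its 12 rows, 11 were tested. miR-429-5p was at 0 in 8 libraries and miR-184-3p in 1.

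The stromal list, led by miR-143-3p, summed to 756168 ± 115212 and 823815 ± 192730, with all 8 rows tested. The endothelial sum, from both arms of miR-126, was 133853 ± 12350 in Control goats and 168383 ± 23642 in FD goats, and 5 of 6 FD libraries were above every Control library. The erythroid sum, led by miR-451-5p, was 5075 ± 1034 and 7004 ± 1018, again with 5 FD libraries above every Control library, although miR-451-3p was at 0 in 9 libraries.

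The myeloid and lymphoid list, led by miR-155-5p, summed to 10016 ± 1880 and 12952 ± 3971, with miR-155-3p at 0 in 2 libraries. miR-155-5p itself had a log2 fold change of -0.12, but the median of the 4 tested rows of this list was 0.93. Of these 4 rows, 3 had an unadjusted p under 0.05 with edgeR and were higher in FD goats, beside 37 of the 490 miRNA. With edgeR 0 and with DESeq2 2 of the 4 were called, beside 0.0% and 5.31% of the 490. The median log2 fold change was 0.34 for the 2 endothelial, 0.33 for the 3 tested erythroid and 0.28 for the 8 stromal rows. For the 11 tested epithelial rows it was -0.18, within a range from -0.37 to 2.80. The upper end of this range was also the highest estimate among the 490. Of the 11 rows, 8 were negative like 7 of the 8 members. At an unadjusted p under 0.05, 2 were lower and 1 higher in FD goats. At that p 2 endothelial, 1 erythroid and 0 stromal rows were higher in FD goats. DESeq2 called 1 endothelial row and 0 epithelial, erythroid or stromal rows. Muscle miRNA, of interest because this domain is known for its expression in muscle, summed to 878 ± 278 and 923 ± 346, led by miR-133a-3p, with miR-206-3p at 0 in 9 libraries. The neural sum, led by miR-128-3p, was 433.2 ± 13.0 and 481 ± 64.5, and miR-124c-3p and miR-9-3p were each at 0 in 3 libraries. The endothelial and erythroid sums were thus higher in most FD goats, as were 3 of the 4 tested myeloid and lymphoid miRNA on average, while the epithelial median was below 0 as that of the members was. The part of these cell types in the levels of the members was not tested.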

How the data were processed

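Each of 10 goats gave 1 library, for which the authors deposited raw read counts of every mature miRNA. Base calling with CASAVA 1.8.2 is taken from the submitters' processing notes. Adapters were removed by the authors (Cutadapt) and reads of 17 to 28 nt were kept. They mapped these to goat CHIR_1.0, and counted them with miRDeep2 on known (miRBase 21) and predicted precursors, and removed redundancy. The score values are the miRDeep2 scores deposited by the authors for precursors predicted on pooled reads. The deposited normalized counts were not used. Molecular identifiers are not described, so intervals cover counting error only.

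Members and lists were chosen with earlier results of these data known. miRNA with a normalized count (DESeq2 size factors) above 28 in at least 1 library were tested with edgeR 4.0.16 (TMM, quasi-likelihood, two-sided, no covariates, adjusted p under 0.1). The standard error is the log2 fold change divided by the square root of F. DESeq2 1.42.0, limma 3.58.1 (voom), other scalings and filters and each library left out were alternatives. Arm ratios (0.5 counts added) were tested with limma over 114 precursors, 1 of which had equal counts on both arms in every library. Correlations used scipy 1.17.1. Named miRNA were every member, the 3 downstream miRNA of smallest p, the 3 most abundant, tested miRNA of other imprinted domains, the 5 most alike and the most abundant of each marker list. Further miRNA, such as the untested miR-483-3p, marker rows at 0 and the ends of a range, were named for their values. Same-diet libraries differed beyond sampling noise in 21 of 21 pairs (chi-square per degree of freedom 131 to 1267). This sets separate goats against counting error alone at high depth, so no conclusion is drawn from it. The scripts were tested on simulated data.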

Additional observations from a re-analysis of the deposited data

How the results depend on the processing

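No paired analysis was made, because each library came from a different goat and replicate numbers only count the goats within each diet. Members were called in 0 of 18 fits, so their counts, signs and medians describe these goats only. Over all miRNA, edgeR called 0, DESeq2 26 and edgeR without the filter on low counts 5, and with 1 library left out 0 to 1 (1 without L02). The member median lay between -0.36 (without L10) and -0.12 (without L06) with 1 library left out. Of the log2 fold changes of single members, 53 of 55 kept their direction under other tests, scalings and filters, and 73 of 80 with 1 library left out. miR-136-5p turned to -0.0016 with TMM computed without the 10 most abundant miRNA, to -0.016 with a filter of 100, and to -0.032, -0.046, -0.12 and -0.16 without L02, L04, L09 and L10 (range -0.16 to 0.087). miR-432-5p turned to 0.10, 0.048 and 0.019 without L01, L03 and L06 (range -0.23 to 0.10). With 1 library left out, that of miR-127-3p ranged from -0.28 to -0.025, miR-127-5p from -0.35 to -0.15, miR-136-3p from -0.36 to -0.086, miR-493-5p from -0.62 to -0.29, miR-493-3p from -0.76 to -0.49 and miR-665-3p from -0.64 to -0.32. The cause was not tested. Arm ratios gave 3 calls, and 0 to 4 with 1 library left out (0 without L08, L09 or L10, 1 without L01, L02 or L04, 4 without L03). All 36 alternatives for the arm ratios of the members kept their direction and stayed above an adjusted p of 0.1, with differences from -0.12 to -0.011 for mir-127, 0.095 to 0.34 for mir-493 and 0.17 to 0.24 for mir-136 when 1 library was left out. The share difference, -0.066 percentage points, ranged from -0.12 to -0.0037.

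Of the correlations with miR-127-3p, miR-665-3p had an r of 0.622 on deviations from the diet means. Without L06 and L03, r was 0.460 for miR-493-3p, 0.550 for miR-665-3p, 0.670 for miR-127-5p, 0.769 for miR-432-5p and 0.671 for miR-136-3p, none of them under an adjusted p of 0.05. With 1 library left out, r ranged from 0.181 to 0.590 for miR-493-5p, 0.569 to 0.802 for miR-493-3p, 0.577 to 0.739 for miR-665-3p, 0.763 to 0.915 for miR-127-5p, 0.614 to 0.847 for miR-432-5p, 0.675 to 0.761 for miR-136-5p and 0.646 to 0.805 for miR-136-3p. The number of pairs passing was 0 without L03, 1 without L09 and 3 without L06, against 5 or 6 without any other library. Depth limits miR-433, miR-370, miR-432-3p and miR-665-5p, with at most 11 counts in a library.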

Other observations

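Other imprinted domains were represented by 5 rows, of which 4 were tested. miR-335-3p had a log2 fold change of 0.59 (SE 0.458) and miR-335-5p of -0.11 (SE 0.433). miR-296-5p had one of 0.44 (SE 0.395) and miR-296-3p of -0.23 (SE 0.229). Their median was 0.17, and the adjusted p lay between 0.488 and 0.910 with edgeR. miR-483-3p, from the IGF2 gene, was not tested and is named after its values were seen. It had 2.61 ± 0.464 normalized counts (SD, n = 4) in Control goats and 4.03 ± 0.635 (SD, n = 6) in FD goats, from 37 counts in all.

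The 3 precursors whose arm balance differed between diets were mir-335, mir-20a and mir-379, named after their values were seen. In mir-335 the log2 ratio of 5p to 3p was 1.04 ± 0.167 (SD, n = 4) in Control goats and 0.36 ± 0.222 (SD, n = 6) in FD goats, a difference of -0.68 (SE 0.134, adjusted p = 0.0550 with limma), and all 6 FD libraries were below every Control library. With 1 library left out it was called in 6 of 10 fits (adjusted p from 0.050 to 0.138). In mir-379, the first precursor of the downstream cluster, the ratio was -0.24 ± 0.166 (SD, n = 4) and 0.31 ± 0.234 (SD, n = 6), a difference of 0.55 (SE 0.138, adjusted p = 0.0996 with limma), called in 2 of 10 such fits (adjusted p up to 0.289). In mir-20a the difference was 0.58 (SE 0.146, adjusted p = 0.0996), called in 3 of 10.

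miR-3955-5p, whose gene lies between MIR136 and MIR379, was 14th in likeness to the members (r = 0.826). It was not on the list of downstream miRNA, so it was counted among the remaining tested miRNA although its gene lies in the same domain. It was chosen after its values were seen.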
